A study of Mus musculus with 11 samples.

Results

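ATF4, a transcription factor of the amino acid response, its target genes, and genes of the unfolded protein response in the endoplasmic reticulum are described here. The list holds 40 genes listed by symbol, and all 40 were measured among the 18193 genes of the array table. A gene was matched through the platform annotation to probe sets that name it alone, and its probe set with the highest mean level stands for it. The genes form 2 arms, an ATF4 arm of 30 genes and an endoplasmic reticulum arm of 10 genes, which holds chaperones and their partners. The arrays were hybridised with total RNA from the colon of adult C57BL/6 mice. There were 3 groups, control arrays from colon taken before imatinib (n = 3), arrays from 3 h after an imatinib injection (n = 4) and arrays from 12 h after it (n = 4). Imatinib inhibits tyrosine kinases, among them Abl, Kit and PDGF receptors, and the series title places the study in work on signalling from Eph receptors to Abl in intestinal tumours. No vehicle group was analysed here, so effects of imatinib, of being injected and of the time of day cannot be told apart. The labels do not say that each array came from its own mouse, so the p-values rest on a spread between samples that may be technical.

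ATF4 is made when a kinase that senses scarce amino acids, misfolded protein, viral RNA or lack of heme phosphorylates the initiation factor eIF2 alpha. General translation then slows while the Atf4 message is translated more, and ATF4 with C/EBP partners switches on genes for amino acid synthesis, amino acid uptake and tRNA charging. The unfolded protein response shares this branch through the kinase PERK and adds ATF6 and the IRE1 and XBP1 branch, which raise chaperones such as BiP (Hspa5). A rise of ATF4 targets together with chaperones is thus the usual picture of stress in the endoplasmic reticulum, and ATF4 targets can also be raised without it. The colon epithelium holds many secretory cells, among them goblet cells, whose reticulum folds mucin.

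Promoters of both arms were searched for the elements that ATF4 and the chaperone factors are known to bind. RefSeq promoter windows on GRCm38.p6, from 250 bases before to 50 bases after a start, were found for 35 of the 40 genes, and Eif4ebp1, Hyou1, Nars, Slc7a5 and Wars had none in the table. The composite C/EBP and ATF element (CARE), searched as TGATGNAAN on both strands, was present in 9 of the 26 ATF4 arm genes with a window, in 1 of the 9 endoplasmic reticulum genes and in 4.5% of all 27025 genes with windows. The endoplasmic reticulum stress element (ERSE), searched on both strands as its 2 conserved ends CCAAT and CCACG with 9 bases between them, was present in 3 of the 9 endoplasmic reticulum genes, in 0 of 26 ATF4 arm genes and in 0.137% of all genes. The shorter form ERSE-II, ATTGG and CCACG with 1 base between, was present in Herpud1 and in 0.0444% of all genes. The core of the XBP1 element (UPRE), TGACGTGG, was in no member's window and in 0.714% of all windows' genes. These shares count letters and do not show that a factor binds. The CARE matches were in Aars, Asns, Atf3, Chac1, Gars, Nupr1, Slc7a11, Trib3 and Vldlr, and in Herpud1 of the other arm.

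The stretches below are a selection and not all matches. With a CARE they show Chac1 and Aars, which rose at 3 h, and Asns, which was not called. Trib3, which also rose and has a CARE, is not printed. Hspa5 and Hsp90b1, neither of them called, are shown for an ERSE. The window of Herpud1 holds both a CARE and an ERSE-II that do not overlap each other. The stretches run 5′ to 3′ on the strand of the gene, lie before the start, and have the matched letters in capitals. They are Chac1 at chr2:119351028-119351076 (plus strand), Asns at chr6:7693210-7693252 (minus), Aars at chr8:111033709-111033757 (plus), Herpud1 at chr8:94386296-94386344 and chr8:94386357-94386407 (plus), Hspa5 at chr2:34772005-34772063 (plus) and Hsp90b1 at chr10:86705618-86705676 (minus).
Chac1, CARE: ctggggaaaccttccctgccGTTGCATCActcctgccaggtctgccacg
Asns, CARE: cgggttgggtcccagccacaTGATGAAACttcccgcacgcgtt
Aars, CARE: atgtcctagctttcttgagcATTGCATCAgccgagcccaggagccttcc
Herpud1, CARE: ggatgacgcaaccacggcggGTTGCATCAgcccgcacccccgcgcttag
Herpud1, ERSE-II: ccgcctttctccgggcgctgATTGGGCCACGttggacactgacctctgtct
Hspa5, ERSE: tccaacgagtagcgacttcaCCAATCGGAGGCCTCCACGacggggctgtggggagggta
Hsp90b1, ERSE: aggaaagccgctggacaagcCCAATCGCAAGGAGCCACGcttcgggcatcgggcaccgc

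Asns, Chac1, Aars and Herpud1 thus carried the 9-letter element in either orientation, while Hspa5 and Hsp90b1 carried the chaperone element without it. Hsp90b1 held a second ERSE nearer the start, and the third gene with one was Creld2. Of the 9 ATF4 arm genes with a CARE in the window 3 rose at 3 h, and of the 17 with a window and no CARE 6 rose.

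Signals are linear intensities, 1 per probe set, and each array had been scaled to an equal trimmed mean. Array medians ran from 16.8 to 23.9, and having only 3 or 4 arrays a group limits the precision. The 12 epithelial markers (Epcam, Vil1, Cdx2 and others) summed to a signal of 42530 to 54642 on every array, and none of them was at 0. RNA of pancreatic acinar cells was also present, and 5 arrays (control replicate 1, 3 h replicate 3 and 12 h replicates 1, 3 and 4) had a signal of the elastase gene Cela3b between 4062 and 11648, against 7.5 to 424 on the other arrays. Acinar cells have an abundant reticulum, so results are also given without these 5 arrays. In bulk tissue, fewer cells of a type and less RNA per cell cannot be told apart.

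Of 30 ATF4 arm genes 11 rose and 0 fell at 3 h against control (limma, adjusted p under 0.05 over all genes), where 1.43% of all genes tested were called higher, 1.1% lower and 2.54% in either direction. The 11 were Atf4 itself, Cebpb, Trib3, Chac1, Ddit4, Eif4ebp1, Mthfd2, Slc3a2, Slc7a5, Slc7a1 and Aars. Their log2 changes lay between 0.67 and 1.94 on the log2(signal + 16) scale, which understates the change of dim genes. Folds given below are these changes unlogged, so they are ratios of signal + 16 and not of the signals printed beside them. The median log2 change of the 30 genes was 0.46, against −0.02 over all genes, and 27 of the 30 were above 0. Every array at 3 h lay above every control array for 18 of the 30, where this held for 6.77% of all genes. Of 10 endoplasmic reticulum genes 1 rose, Herpud1, and 0 fell, and their median log2 change was −0.11.

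**Figure D1:**
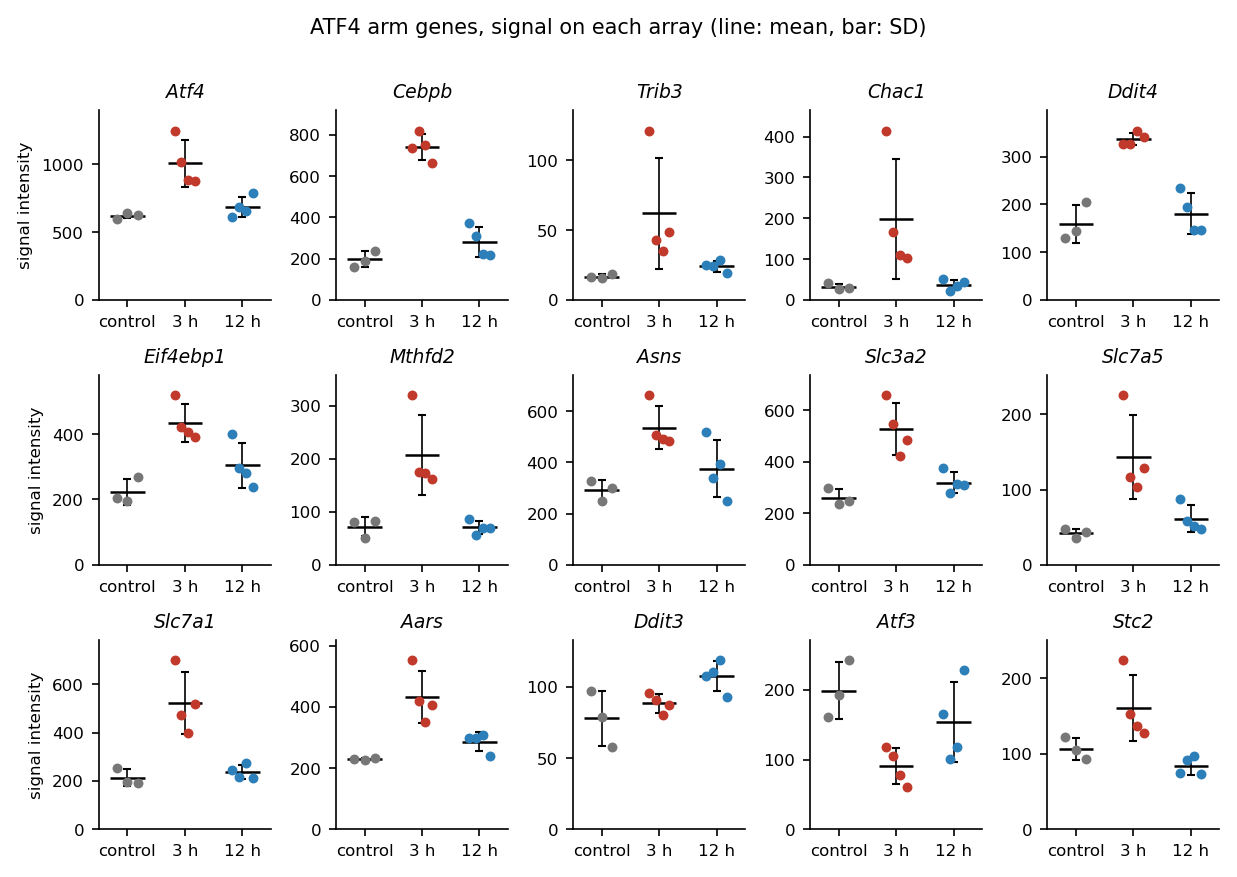
Signal intensity of 15 ATF4 arm genes on each array (y axis, linear and starting at 0) in control (n = 3), 3 h (n = 4) and 12 h (n = 4) colon, with the group mean as a line and the SD as a bar. For the 11 genes that rose at 3 h no 3 h array overlapped the controls. They were picked by limma on these same arrays, so this is no separate support. The leftmost red point, 3 h replicate 1, is the highest for 9 of the 11.

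Among the transcription factors, 3 of 7 rose at 3 h. The signals of Atf4 were 599, 638 and 626 in control, 1247, 1015, 884 and 878 at 3 h and 613, 684, 656 and 788 at 12 h. All 4 arrays at 3 h lay above both other groups. Atf4 rose by a log2 change of 0.67 ± 0.13 (SE), 1.59-fold (limma adjusted p = 0.0219). C/EBP beta (Cebpb), a bZIP partner of ATF4 and a target of it, had the smallest p of the list. In control Cebpb had 162, 189.8 and 239, with 733, 819.6, 750.3 and 665 at 3 h and 373, 309, 222 and 218 at 12 h. The 4 arrays at 3 h lay above all others, and the 12 h arrays overlapped the controls. The rise of Cebpb at 3 h was 3.59-fold, 1.84 ± 0.18 (SE) in log2 (limma adjusted p = 0.000316). Trib3 encodes a pseudokinase that restrains ATF4 and Akt signalling. Trib3 gave signals of 16.2, 15.7 and 18.5 in control, of 121, 42.9, 35.3 and 48.8 at 3 h and of 25.4, 24.1, 28.4 and 19.1 at 12 h. Its log2 change at 3 h was 1.14 ± 0.26 (SE) (limma adjusted p = 0.0428), or 2.2-fold. The control signals of Trib3 were close to the offset of 16, so this change is among those the scale understates. The Trib3 call ended with an offset of 1 (0.0589) or 64 (0.0879), with the 2 groups alone (0.0935), with a replicate block (0.0637) and without the 5 arrays high in pancreatic RNA (limma adjusted p = 0.229).

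The other factors of the group did not pass the test. Ddit3 encodes CHOP, the factor linked to cell death under prolonged stress of the reticulum. Ddit3 had signals of 96.9, 78.6 and 58 in control, 95.6, 90.8, 79.9 and 87.1 at 3 h and 108, 110.3, 119 and 93 at 12 h. The 3 h arrays lay within the range of the controls, with a log2 change of 0.17 ± 0.14 (SE) (adjusted p = 0.641). Atf3, a stress-induced bZIP factor and known ATF4 target, was on the other side of the control arrays. The signals of Atf3 were 161, 192 and 242 in control, 117, 105, 77.9 and 60.8 at 3 h and 165, 101, 118 and 228 at 12 h. Every 3 h array was below every control array, with a log2 change of −1.03 ± 0.26 (SE) that missed the threshold (limma adjusted p = 0.0574). Atf3 was called lower among genes with a mean signal above 32 (0.0287), with a trended prior (0.0325), with the 2 groups alone (0.0409) and without 12 h replicate 4 (limma adjusted p = 0.0303). Arrays at 3 h lay wholly below control for 8.56% of all genes. Cebpg, a C/EBP family partner, and Nupr1, a stress-induced chromatin protein, had log2 changes of −0.04 ± 0.09 (SE) and 0.28 ± 0.34 (SE).

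Among the stress effectors 3 of 7 rose and 7 of 7 were above 0. Chac1, an enzyme that degrades glutathione and a sensitive ATF4 target, had the largest log2 change of all 40 genes. In control Chac1 had 41.1, 27.7 and 28.6, with 415, 166, 109 and 103 at 3 h and 50.4, 22.4, 33.9 and 43.4 at 12 h. The lowest 3 h array was above the highest array of either other group. Chac1 rose by a log2 change of 1.94 ± 0.37 (SE), 3.84-fold (limma adjusted p = 0.018). Ddit4 (REDD1), an inhibitor of mTORC1 that glucocorticoids induce as well, was even across the 3 h arrays. Ddit4 gave signals of 130.0, 143 and 204 in control, of 326, 327, 354 and 340.1 at 3 h and of 234, 195, 145 and 147 at 12 h. The rise of Ddit4 at 3 h was 2.05-fold, 1.03 ± 0.17 (SE) in log2 (limma adjusted p = 0.00927). Eif4ebp1 encodes 4E-BP1, the translation repressor that mTORC1 inactivates. Eif4ebp1 had signals of 205, 195 and 268 in control, 519, 424, 406 and 390.3 at 3 h and 402, 296, 280.1 and 239 at 12 h. Its 3 h arrays were all above control, and the 12 h arrays overlapped both other groups. Its log2 change at 3 h was 0.92 ± 0.17 (SE) (limma adjusted p = 0.016), or 1.9-fold. Stc2, a secreted glycoprotein, and the lipoprotein receptor gene Vldlr had 3 h arrays wholly above control, with log2 changes of 0.50 ± 0.17 (SE) and 0.54 ± 0.21 (SE) that did not pass. Sesn2, an amino acid sensor upstream of mTORC1, and Ppp1r15a (GADD34), the phosphatase subunit that restores eIF2 alpha, had log2 changes of 0.42 ± 0.15 (SE) and 0.24 ± 0.16 (SE) with overlapping arrays.

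Of 7 genes of amino acid synthesis and one-carbon metabolism 1 rose, Mthfd2, a mitochondrial folate enzyme. The signals of Mthfd2 were 81.1, 50.5 and 81.8 in control, 319, 175, 172 and 162 at 3 h and 86.3, 56.4, 69.1 and 69.3 at 12 h. Mthfd2 rose by a log2 change of 1.33 ± 0.22 (SE), 2.51-fold (limma adjusted p = 0.00923). Asns, asparagine synthetase, is the classical gene of the amino acid response. In control Asns had 327, 248 and 300.5, with 663, 508, 493 and 483 at 3 h and 520.3, 340.2, 394 and 250 at 12 h. The 3 h arrays did not overlap the controls, but the log2 change of 0.84 ± 0.20 (SE) stood just outside the threshold (limma adjusted p = 0.0534). Apart from leaving out 1 array, it was called under 7 of 11 alternative settings (adjusted p from 0.0117 to 0.0483) and not under the other 4 (up to 0.115). Aldh18a1, of proline synthesis, was above control on every 3 h array, with a log2 change of 0.62 ± 0.19 (SE). Phgdh, Psat1 and Psph, the 3 steps of serine synthesis, had log2 changes of −0.01 ± 0.26 (SE), 0.26 ± 0.18 (SE) and 0.19 ± 0.10 (SE), and Shmt2, which passes serine carbon to folate, had 0.31 ± 0.17 (SE), and none of these 4 passed.

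Among the amino acid transporters 3 of 4 genes rose. Slc3a2 (CD98 heavy chain) is the shared subunit that brings several light chains to the membrane. Slc3a2 gave signals of 299.8, 237 and 246 in control, of 658, 549, 422 and 484 at 3 h and of 375, 279, 315 and 308 at 12 h. The rise of Slc3a2 at 3 h was 1.95-fold, 0.96 ± 0.15 (SE) in log2 (limma adjusted p = 0.00733). Slc7a5 (LAT1) is the light chain for leucine and other large neutral amino acids. Slc7a5 had signals of 47, 35.8 and 43.1 in control, 225, 116, 103 and 129 at 3 h and 87.2, 57.7, 51.1 and 48 at 12 h. The 4 arrays at 3 h lay above both other groups, and all 12 h arrays lay above control too. Its log2 change at 3 h was 1.41 ± 0.23 (SE) (limma adjusted p = 0.0078), or 2.65-fold. Slc7a1 (CAT-1) imports arginine and lysine. The signals of Slc7a1 were 254, 196 and 191 in control, 699, 474, 399.5 and 519 at 3 h and 244, 215, 273 and 210.2 at 12 h. Slc7a1 rose by a log2 change of 1.21 ± 0.17 (SE), 2.32-fold (limma adjusted p = 0.00385). Slc7a11 (xCT), the cystine importer, had signals of 1 to 28 on the 11 arrays and its log2 change was 0.13 ± 0.22 (SE).

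Among 5 cytosolic tRNA synthetases, which charge tRNA with amino acids, the alanine enzyme gene Aars rose. In control Aars had 231, 226 and 234, with 553, 419.6, 351 and 406 at 3 h and 299, 298, 307 and 239 at 12 h. The 3 groups did not overlap one another. The rise of Aars at 3 h was 1.8-fold, 0.85 ± 0.14 (SE) in log2 (limma adjusted p = 0.00944). Gars and Nars had 3 h arrays wholly above control, with smaller log2 changes of 0.41 ± 0.10 (SE) and 0.38 ± 0.11 (SE) (limma adjusted p = 0.0559 and 0.0915). Sars had a log2 change of 0.18 ± 0.10 (SE). Wars, which interferon also induces and which the pancreas expresses highly, had a log2 change of 0.10 ± 0.37 (SE), with 383 to 497 on the 3 h arrays and 374 to 453 in control.

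**Figure D2:**
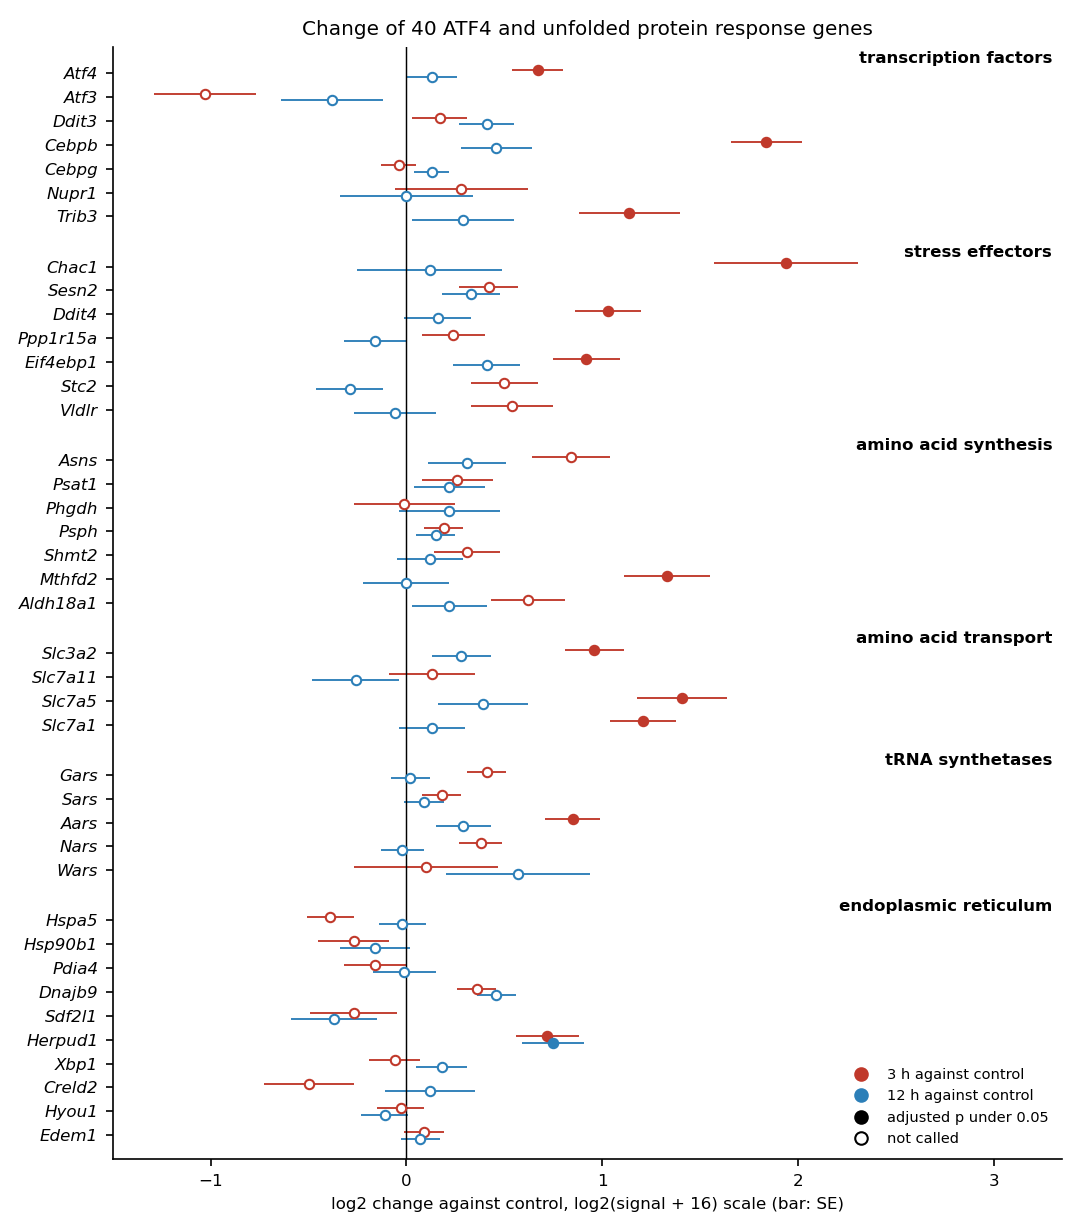
Log2 change against control (x axis, log2(signal + 16) scale, bar SE) of each of the 40 genes at 3 h (red) and 12 h (blue), ordered by role, with filled points for adjusted p under 0.05. At 3 h 11 ATF4 arm genes and Herpud1 are filled, and at 12 h Herpud1 alone.

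In the endoplasmic reticulum arm, Hspa5 encodes BiP, the main chaperone of the reticulum and the standard marker of its stress response. Hspa5 gave signals of 2624, 2587 and 3095 in control, of 2275, 2228, 1964 and 1975 at 3 h and of 2897, 2684, 3014 and 2321 at 12 h. Every 3 h array was below every control array and every 12 h array. The log2 change of −0.39 ± 0.12 (SE) at 3 h did not pass the test (limma adjusted p = 0.119). Other probe sets of Hspa5 had log2 changes at 3 h of −0.24 (mean signal 1317) and 0.08 (mean signal 215). Hsp90b1 (GRP94), the second large chaperone, had 3 h signals of 1401 to 1516, against 1643 to 2005 in control (log2 change −0.27 ± 0.18 (SE), adjusted p = 0.556). These were the 2 of the 10 genes with 3 h arrays wholly below control, which held for 8.56% of all genes. Xbp1, the target of IRE1 splicing, overlapped between all groups on the probe set that stands for it. Xbp1 had signals of 2332, 2043 and 2753 in control, 2159, 2362, 2272 and 2229 at 3 h and 3059.7, 2511, 2872 and 2287 at 12 h. Its log2 change was −0.06 ± 0.13 (SE) at 3 h and 0.18 ± 0.13 (SE) at 12 h. Other probe sets of Xbp1 had −0.04, −0.03 and 0.04 at 3 h. At 12 h against control they had 0.34, 0.32 and 0.45 (limma unadjusted p = 0.0169, 0.0462 and 0.0077). With the mean of all probe sets Xbp1 was not called. The probe sets were not used to tell the spliced from the unspliced form. The co-chaperone and folding genes Creld2, Sdf2l1, Pdia4 and Hyou1 had log2 changes of −0.50 ± 0.23 (SE), −0.27 ± 0.22 (SE), −0.16 ± 0.16 (SE) and −0.03 ± 0.12 (SE), all below 0 and none called. Edem1, of reticulum-associated degradation, had 0.09 ± 0.10 (SE).

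Herpud1 stood apart from the chaperones. It encodes a membrane protein of reticulum-associated degradation. The signals of Herpud1 were 518, 530.5 and 495 in control, 1083, 868, 640.3 and 898 at 3 h and 818, 945, 1005 and 750.5 at 12 h. No array at 3 h or 12 h overlapped control, and the 2 times overlapped each other. Its log2 change at 3 h was 0.72 ± 0.16 (SE) (limma adjusted p = 0.0361), or 1.65-fold. At 12 h its log2 change was 0.75 ± 0.16 (SE) (limma adjusted p = 0.0399), and a second probe set of it had 0.79 at 3 h. Among the 35 genes with a window Herpud1 is the one with a CARE beside an ERSE-II, as printed above. Dnajb9 (ERdj4), a BiP co-chaperone, was also above control at both times. In control Dnajb9 had 737, 659 and 824, with 935, 1072, 928 and 886 at 3 h and 996, 1067, 981 and 1042 at 12 h. Neither log2 change, 0.36 ± 0.10 (SE) at 3 h (adjusted p = 0.0984) and 0.46 ± 0.10 (SE) at 12 h (adjusted p = 0.0508), passed the limma test, and 6 of 11 other settings called it at 12 h and 1 at 3 h. Of the 10 genes 2 lay wholly above control at 3 h and 2 at 12 h, against 6.77% and 6.05% of all genes.

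**Figure D3:**
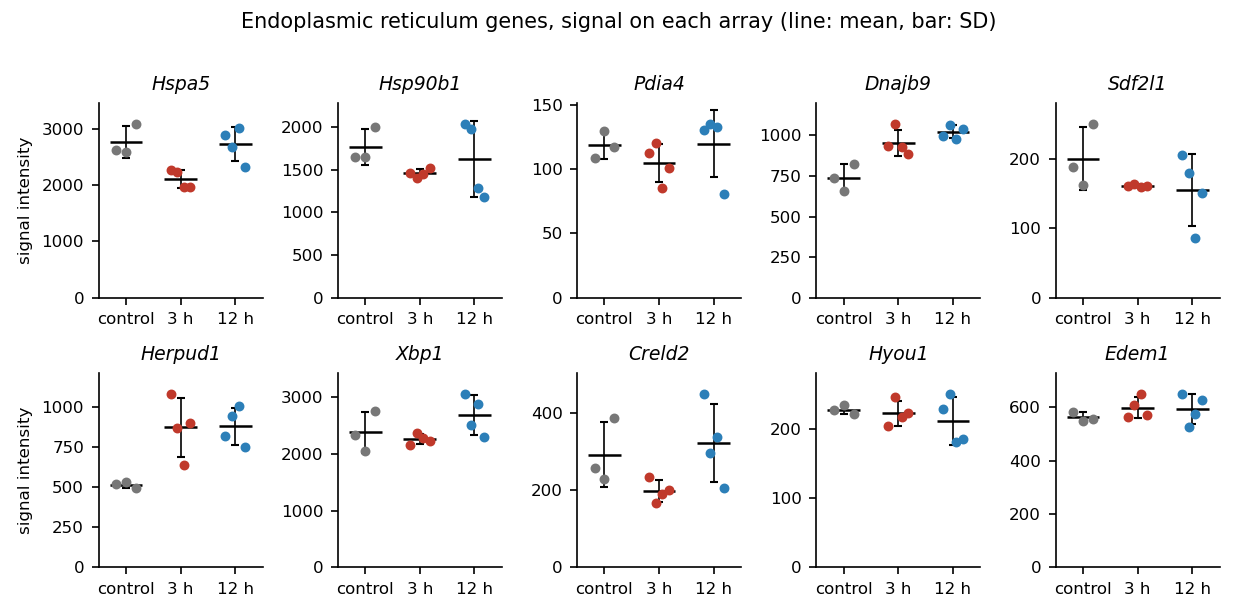
Signal intensity of the 10 endoplasmic reticulum genes on each array (y axis, linear and starting at 0) in control (n = 3), 3 h (n = 4) and 12 h (n = 4) colon, with the group mean as a line and the SD as a bar. Hspa5 and Hsp90b1 lie below all controls at 3 h, and Herpud1 and Dnajb9 lie above all controls at both times. Of these genes Herpud1 alone was called. Over all genes 8.56% lay wholly below control at 3 h, and 6.77% at 3 h and 6.05% at 12 h lay wholly above.

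Other probe sets of 7 of the genes that rose were read as well. The second probe set had a log2 change at 3 h of 0.80 for Atf4, 1.61 for Cebpb, 1.09 for Trib3, 0.71 for Eif4ebp1, 0.97 for Mthfd2, 1.21 for Slc7a1 and 0.78 for Aars. The second probe set of Atf4 had a log2 change of 0.76 at 12 h against control (limma unadjusted p = 3.45e-05). Its log2 difference between 12 h and 3 h was −0.04, so the 2 probe sets of Atf4 disagreed at 12 h. The second probe set of Aars had 0.49 at 12 h against control (limma unadjusted p = 0.00801) and −0.29 between the times (0.0649). Dimmer ones had −0.18 for Atf4 (mean signal 3.74), 0.31 for Eif4ebp1 and 0.36 for Slc7a1. Leaving out 1 array ended the call of Trib3 for any control, 3 h replicates 2 and 4 and any 12 h array (limma adjusted p up to 0.147), and that of Atf4 and of Chac1 for any control and 3 h replicate 2 (up to 0.0971 and 0.079). It ended the call of Ddit4 and of Eif4ebp1 for control replicates 1 and 2 (up to 0.0544 and 0.0811), of Mthfd2 for control replicate 2 (0.0534), and of Herpud1 for any control, 3 h replicates 1, 2 and 4 and 12 h replicate 2 (up to 0.121). The call of Herpud1 also ended, at both times, with an offset of 1, the 2 groups alone or a replicate block, and that of Atf4 at 3 h with an offset of 1 (limma adjusted p = 0.0563) or a replicate block (0.0744). The number of ATF4 arm genes called was 6 without control replicate 1 and 5 without control replicate 2. Without the 5 arrays high in pancreatic RNA, which leaves 2 controls and 3 arrays at 3 h, all 11 genes kept a positive log2 change, between 0.70 and 2.25, and 3 were called (Cebpb, Slc3a2 and Slc7a1), and Herpud1 had 0.86 and was not called (adjusted p = 0.0768).

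Against control 0 of 30 ATF4 arm genes were called at 12 h in either direction by limma, where 1.63% of all genes were, and 4 had an unadjusted p under 0.05, which 15.8% of all genes had. These counts rest on 1 probe set a gene, and the second probe set of Atf4 had a log2 change of 0.76 (limma unadjusted p = 3.45e-05). The 12 h arrays lay wholly above control for 3 of the 30 and wholly below for 0, against 6.05% and 6.99% of all genes. The median log2 change of the 30 was 0.14, against −0.01 over all genes. The 11 genes that rose at 3 h had log2 changes at 12 h between 0.00 and 0.46, with a median of 0.28, and for 8 of them the 12 h arrays overlapped the controls. The 3 that did not overlap were Trib3, Slc7a5 and Aars. Of the 11, Mthfd2 was the closest to control, with 70.3 ± 12.3 (SD, n = 4) at 12 h and 71.1 ± 17.9 (SD, n = 3) in control. Cebpb was the furthest above control, with a log2 change of 0.46 ± 0.18 (SE) (adjusted p = 0.243). In the other arm 1 of 10 was called higher, Herpud1, where 0.786% of all genes were (0.846% were called lower).

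The 2 times were also compared directly. This comparison uses no control array and shares the 3 h arrays with the first comparison and the 12 h arrays with the second. Of 30 ATF4 arm genes 12 were lower at 12 h than at 3 h and 0 were higher, where 2.08% of all genes were called lower, 1.99% higher and 4.07% in either direction. The 12 h arrays lay wholly below the 3 h arrays for 14 of the 30 and wholly above for 1, against 5.26% and 6.3% of all genes, and the median log2 difference was −0.40 against 0.01 over all genes. Of the 11 that rose at 3 h 9 were among them, all but Trib3 and Eif4ebp1. Chac1 had a log2 difference of −1.82 ± 0.34 (SE) (limma adjusted p = 0.012) and Cebpb −1.38 ± 0.17 (SE) (adjusted p = 0.000927). Mthfd2, Slc7a1 and Slc7a5 had −1.33 ± 0.20 (SE), −1.08 ± 0.16 (SE) and −1.02 ± 0.21 (SE), and Ddit4 and Slc3a2 had −0.87 ± 0.16 (SE) and −0.69 ± 0.14 (SE). Atf4 had −0.53 ± 0.12 (SE) (adjusted p = 0.0311), which was −0.16 and not called (adjusted p = 0.339) with the mean of its probe sets, and Aars −0.56 ± 0.13 (SE) (adjusted p = 0.0349). The 3 others were called in this comparison and not against control. Stc2 gave signals of 122, 106 and 92.9 in control, of 224, 153, 137 and 128 at 3 h and of 74.3, 91.4, 97.7 and 73.5 at 12 h. Stc2 was thus lower at 12 h than at 3 h on every array, by a log2 difference of −0.80 ± 0.16 (SE) (limma adjusted p = 0.0166). Gars had signals of 483, 486 and 566 in control, 765, 669, 623 and 693 at 3 h and 524, 505, 553 and 492 at 12 h. Gars, with no overlap between 3 h and either other group, had a log2 difference of −0.39 ± 0.09 (SE) (adjusted p = 0.0397). The signals of Nars were 970.1, 982 and 1054 in control, 1509.8, 1311, 1155 and 1264 at 3 h and 926, 949, 1023 and 1054 at 12 h. Nars likewise had no overlap between 3 h and either other group, with a log2 difference of −0.40 ± 0.10 (SE) (adjusted p = 0.0437).

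Of 10 endoplasmic reticulum genes 0 were called between 12 h and 3 h by limma, where 4.07% of all genes were. Of the 10, 2 had an unadjusted p under 0.05, a share near the 17.8% of all genes. Both were higher at 12 h, Hspa5 by a log2 difference of 0.36 ± 0.11 (SE) (adjusted p = 0.0912) and Creld2 by 0.62 ± 0.22 (SE) (adjusted p = 0.146). Leaving out 1 array ended the call of Nars for every array but 3 h replicate 3 (adjusted p up to 0.121), and those of Gars and Aars for control replicate 2, 3 h replicates 1, 2 and 4 and any 12 h array (up to 0.116 and 0.0793). It ended the call of Atf4 for 3 h replicates 1 and 2 and 12 h replicates 1, 2 and 3 (up to 0.0818), of Slc3a2 for 3 h replicates 1 and 2 and 12 h replicate 2 (up to 0.0628) and of Slc7a5 for 12 h replicates 2 and 3 (up to 0.0569). The calls of Atf4, Gars, Aars and Nars also ended with an offset of 1, the 2 groups alone or a replicate block, and that of Slc3a2 with an offset of 1. With the mean of all probe sets those of Aars and Nars ended too, and Nars also with equal medians. The number of ATF4 arm genes called was 7 without 3 h replicate 2, 6 without 12 h replicate 2 and 7 without 12 h replicate 3. For Herpud1 at 12 h against control the call ended without any control, 3 h replicates 2 and 4 or 12 h replicates 1, 2 and 3 (up to 0.13). Without the 5 arrays high in pancreatic RNA 1 array is left at 12 h, so its spread is taken from the other groups and the fit says little about these calls. All 12 genes kept a negative log2 difference, between −2.45 and −0.47, and 0 were called (limma adjusted p from 0.121 to 0.393).

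The 2 arms can be set against each other on each array by their mean log2 level, as a description. The ATF4 arm had a mean level of 7.49, 7.37 and 7.50 in control, of 8.34, 8.02, 7.88 and 7.94 at 3 h and of 7.82, 7.54, 7.60 and 7.43 at 12 h. The endoplasmic reticulum arm had 9.18, 9.12 and 9.35 in control, 9.22, 9.21, 9.09 and 9.15 at 3 h and 9.49, 9.39, 9.25 and 9.10 at 12 h. The first separated the 3 h arrays from all others and the second did not separate any group. The difference of the arms, ATF4 minus endoplasmic reticulum, averaged −1.77 ± 0.09 (SD, n = 3) in control, −1.12 ± 0.16 (SD, n = 4) at 3 h and −1.71 ± 0.09 (SD, n = 4) at 12 h. It was thus 0.64 higher at 3 h than in control on the log2 scale, 0.05 higher at 12 h than in control and 0.59 lower at 12 h than at 3 h. Without the 5 arrays high in pancreatic RNA the last value was −0.76.

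**Figure D4:**
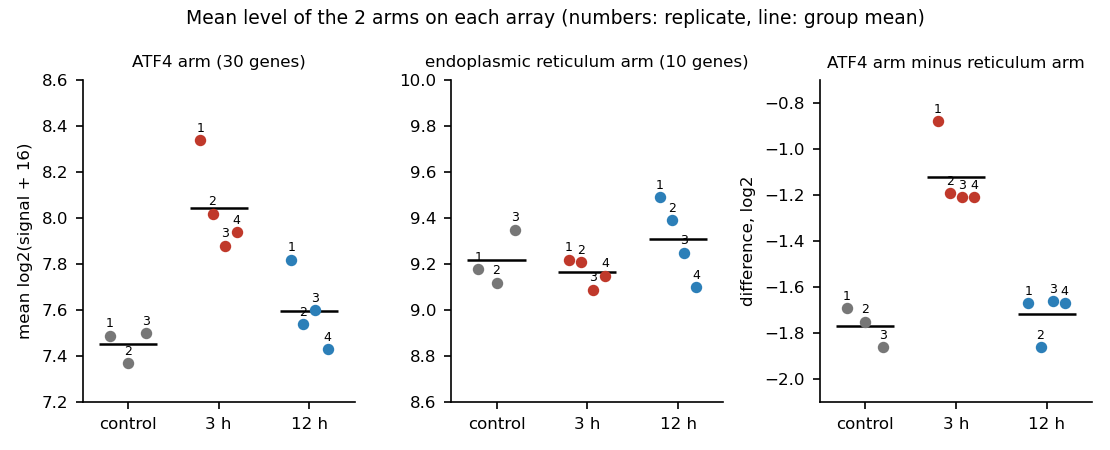
Mean log2(signal + 16) of the 30 ATF4 arm genes, of the 10 endoplasmic reticulum genes, and their difference on each array (y axes, equal spans), with the replicate number above each point and the group mean as a line. In the ATF4 arm the 3 h arrays (7.88 to 8.34) lie above the controls (7.37 to 7.50), while the endoplasmic reticulum arm overlaps between the groups.

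The 3 h arrays also differed among themselves. Replicate 1 was the highest of the 4 for 23 of the 30 ATF4 arm genes, and replicate 3 was the lowest for 14 and replicate 4 for 11. In the endoplasmic reticulum arm replicate 1 was the highest for 3 of 10. For the 11 genes that rose all 4 arrays were above control, which their selection on these same arrays makes likely. Chac1 was at 415 on replicate 1 against 103 to 166 on the others. Among the 12 h arrays replicate 1 was the highest for 18 of the 30 and replicate 4 the lowest for 18. Wars on 12 h replicate 1 had a signal of 1606, against 383 to 523 on the other 12 h arrays, and Phgdh had 330.0 there against 134 to 190.2. That array was among those high in pancreatic RNA, with the acinar markers summing to 92134. Control replicate 1 had an acinar sum of 116929, with a Wars signal of 415 and a Phgdh signal of 214. The part of pancreatic RNA in these values was not tested.

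Markers of other cell types moved with the groups in part. Of 9 mesenteric fat markers 1 rose at 3 h (Fabp4), where 1.43% of all genes were called higher. Of the 9, 6 had an unadjusted limma p under 0.05, against 15% of all genes. For 6 of them the 3 h arrays lay wholly above control, against 6.77% of all genes. The median log2 change of the 9 at 3 h was 0.77. Their summed signal was 2115 to 2694 in control, 3633 to 5079 at 3 h and 2150 to 5044 at 12 h. Replicate 1, the highest in the ATF4 arm, had the lowest fat sum at 3 h, 3633. The 16 acinar markers summed to 11136 to 116929 in control, 9937 to 36946 at 3 h and 9460 to 92134 at 12 h. Limma called 0 of the 16 in any comparison. Over all genes it called 2.54% at 3 h, 1.63% at 12 h and 4.07% between the times. The median log2 change of the 16 was −1.63 at 3 h, with 15 below 0, and 1.93 at 12 h, with 15 above 0. Between 12 h and 3 h it was 3.57, with 16 above 0. Arrays differed widely within each group, so 0 calls does not mean no shift. That list holds Zg16, which goblet cells express too. Goblet markers (0 of 10 called) and plasma cell markers (0 of 7) at 3 h had sums of 35612 to 43437 and 3880 to 5308, which overlapped the controls. Over all genes 2.54% were called at 3 h, so 0 calls in lists this short says little. Of 12 epithelial markers 1 rose at 3 h, the intestinal factor gene Cdx2, from a list whose sums overlapped between the groups. Of 7 plasma cell markers 2 were lower at 12 h than at 3 h (Prdm1 and Pou2af1), where 2.08% of all genes were called lower. Sums of the 7 were 4220 to 5026 in control, 3880 to 5308 at 3 h and 3228 to 3707 at 12 h, the last wholly below both. Of 8 smooth muscle markers 2 were lower at 12 h than at 3 h (Des and Actg2), against the same 2.08% of all genes. Sums of the 8 were 19284 to 23314 in control, 18999 to 27177 at 3 h and 13167 to 20681 at 12 h. At 12 h against control 8 of the 8 muscle markers were below 0 and 0 were called by limma, where 1.63% of all genes were called. Of the 8, 7 had an unadjusted p under 0.05, against 15.8% of all genes. No marker of these lists had a signal of exactly 0 on any array. The part of fat, plasma cells or muscle in the ATF4 arm's values was not tested.

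Other genes of the pathway, outside the list, were counted in the same way. Of 26 other measured ATF4 targets 3 rose and 0 fell at 3 h, where 1.43% of all genes were called higher and 1.1% lower. The median log2 change of the 26 was 0.20. Slc1a4 (ASCT1), a transporter of alanine, serine and cysteine, was one of the 3 that rose. In control Slc1a4 had 69.9, 67.3 and 39.8, with 153, 110.1, 116 and 151 at 3 h and 41.3, 41, 46.1 and 53.5 at 12 h. Its log2 change was 1.00 ± 0.17 (SE) (limma adjusted p = 0.00923), and at 12 h against 3 h −1.26 ± 0.15 (SE) (adjusted p = 0.000892). Cars encodes the cysteine tRNA synthetase. Cars gave signals of 80.1, 94.1 and 86.2 in control, of 186, 156, 124 and 129.5 at 3 h and of 100.5, 76.8, 64.3 and 94.9 at 12 h. Cars rose by 0.67 ± 0.16 (SE) in log2 (limma adjusted p = 0.0464) and was lower at 12 h than at 3 h, with a log2 difference of −0.72 ± 0.15 (SE) (adjusted p = 0.018). Its call at 3 h ended on leaving out any 1 of 9 arrays (all but 12 h replicates 1 and 3), with equal medians, an offset of 1 or a replicate block, and its call between the times without 3 h replicates 1 or 2 or 12 h replicate 2. Mthfd1l encodes a mitochondrial folate enzyme. Mthfd1l had signals of 39.4, 37.3 and 49.5 in control, 80.6, 64.7, 62.7 and 80.4 at 3 h and 70.9, 70.4, 71.9 and 70.2 at 12 h. Both later groups lay above control. Mthfd1l rose at both times against control, by 0.60 ± 0.11 (SE) at 3 h and 0.59 ± 0.11 (SE) at 12 h (limma adjusted p = 0.016 and 0.0259). Its call at 3 h ended without control replicates 1 or 2 or with a replicate block, and at 12 h without control replicates 1 or 2 or 12 h replicates 2 or 3, with an offset of 1, the 2 groups alone or a replicate block. Without the 5 arrays high in pancreatic RNA Slc1a4, Cars and Mthfd1l were not called. Other targets such as Slc38a2, Slc1a5, Atf5 and Pck2 had log2 changes of 0.43 ± 0.15 (SE), 0.51 ± 0.19 (SE), 0.06 ± 0.14 (SE) and −0.05 ± 0.15 (SE) and did not pass.

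Of 30 other genes of folding and degradation in the reticulum 0 were called at 3 h by limma, where 2.54% of all genes were. Of the 30, 2 had an unadjusted p under 0.05, against 15% of all genes. Of the 30, 19 were below 0, where 9855 of all 18193 genes were. Their median log2 change was −0.15, against −0.02 over all genes. The 3 h arrays lay wholly below control for 3 of the 30, against 8.56% of all genes, and the disulfide isomerase gene Pdia6 was 1 of them. The signals of Pdia6 were 884, 711 and 760.3 in control, 573, 523, 539.6 and 562 at 3 h and 705, 592, 861 and 680.4 at 12 h. Its log2 change of −0.50 ± 0.13 (SE) missed the threshold (adjusted p = 0.062), and it was called with an offset of 64, the filter on signal, a trended prior or the 2 groups alone. Between 12 h and 3 h 1 of the 30 was called higher at 12 h, where 1.99% of all genes were. It was Syvn1 (HRD1), the ubiquitin ligase of reticulum-associated degradation, with a log2 difference of 0.38 ± 0.09 (SE) (limma adjusted p = 0.0429). Of the 30, 24 were above 0, where 9607 of all 18193 genes were. In control Syvn1 had 211, 193 and 220.0, with 183, 179, 149 and 185 at 3 h and 240.4, 225, 244 and 214 at 12 h. Its 12 h arrays lay above all 3 h arrays, but the call ended on leaving out any array but 12 h replicate 4 and under 6 of 11 other settings. Of 13 stress sensors and regulators 0 were called in any of the 3 comparisons by limma. Among them were the 4 eIF2 alpha kinases (Eif2ak1 to Eif2ak4), Ern1 (IRE1), Atf6 and Ppp1r15b. Over all genes 2.54%, 1.63% and 4.07% were called at 3 h, at 12 h and between the times. An unadjusted limma p under 0.05 was reached by 1, 3 and 2 of the 13, against 15%, 15.8% and 17.8% of all genes. The log2 changes of the 13 at 3 h lay between −0.20 and 0.42, which describes their messages and not the activity of the kinases.

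**Figure D5:**
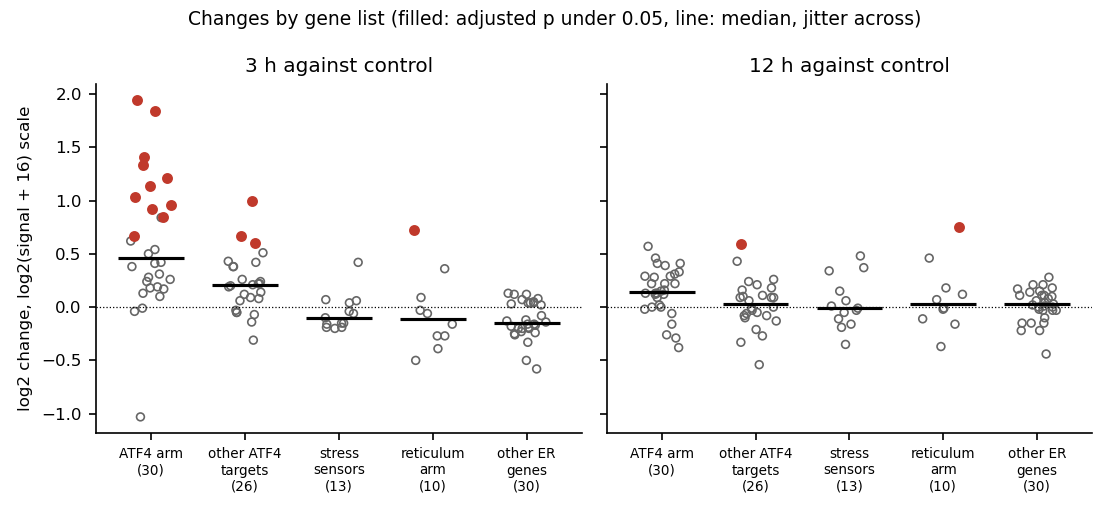
Log2 change (y axis, log2(signal + 16) scale) of each gene in 5 lists, at 3 h and at 12 h against control, with a line at each list's median, filled points for adjusted p under 0.05 and the number of genes in brackets. At 3 h the medians are 0.46 for the ATF4 arm and 0.20 for other ATF4 targets, and −0.11 and −0.15 for the 2 reticulum lists.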

How the data were processed

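RNA from 11 colon samples was biotin-labelled and hybridised to Affymetrix mouse arrays, per the labels' protocols. The deposited values are linear signal intensities, 1 per probe set. For the software that summarised probe sets, nothing is given in the sources used here. A mean of 100 on all arrays, once the outer 2% on either side is trimmed, fits scaling by 1 factor an array in the deposited intensities. Among 45101 probe sets there were 64 controls, and 34945 named a single gene, 932 named more and 9160 named no gene, and only the single-gene kind was used. Symbols were updated by Entrez number through RefSeq GRCm38.p6 (99.4% found). The probe sets used for Eif4ebp1 and Aars are of the x_at and s_at kinds, which can take up related transcripts. Signals were taken as log2(signal + 16), and limma 3.58.1 (R 4.3.3) was fitted to 18193 genes on all 11 arrays (2-sided, Benjamini-Hochberg over all genes, threshold 0.05). Tested on simulated data with 18193 genes, 3 h against control recovered 41.8%, 89.6% and 100% of genes changed 1.5-fold, 2-fold and 4-fold. The shares in the comparison of 12 h with control came to 59.7%, 88.1% and 97%. Between 12 h and 3 h they came to 68.7%, 92.5% and 100%. The changed genes of the simulation were drawn from those with a mean signal above 64. The fold was added on the log2(signal + 16) scale, with normal noise independent between genes. These shares thus do not cover dimmer genes such as Trib3 (mean signal 36). The genes, lists and the 5 arrays left out were chosen with earlier results of these data known. Per-array values are given for listed genes called in any comparison and for Atf4, Ddit3, Asns, Hspa5 and Xbp1; the arrays of Atf3, Dnajb9 and Pdia6 are given in addition, chosen after their values were seen. Other pathway genes are named and given by array where called, and Slc38a2, Slc1a5, Atf5, Pck2 and Pdia6 were named after their values were seen. Figures were drawn with matplotlib 3.10.9.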

Additional observations from a re-analysis of the deposited data

Results flagged for a closer look

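Dixon's test at 4 arrays a group was applied to 86 groups (40 genes and 3 arm measures at 3 h and 12 h), where chance gives about 1 in 20, or 4.3, and 7 stood out. On 3 h replicate 1 Asns had a signal of 662.7, against 483 to 508 on the other 3 h arrays, and Mthfd2 had 319 against 162 to 175. The difference of the arms was −0.88 on the same array, against −1.21 to −1.19. On 12 h replicate 1 Vldlr had 84.8, against 168 to 182. On 12 h replicate 4 Aars had 239, against 298 to 307, and Pdia4 had 80.8 against 131 to 135. The difference of the arms on 12 h replicate 2 was −1.86, against −1.67 to −1.66.

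The change from control differed between 12 h and 3 h for 12 genes, by the limma test of 12 h against 3 h. The log2 differences were −0.53 for Atf4, −1.38 for Cebpb, −1.82 for Chac1, −0.87 for Ddit4, −0.80 for Stc2, −1.33 for Mthfd2, −0.69 for Slc3a2, −1.02 for Slc7a5, −1.08 for Slc7a1, −0.39 for Gars, −0.56 for Aars and −0.40 for Nars.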

How the results depend on the processing

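Alternatives were scaling to an equal median, quantile normalization, offsets of 1 and 64, genes with a mean signal above 32, the mean of all probe sets, array weights, a trended and robust prior, the 2 compared groups alone, a replicate block, a threshold of 0.1 and leaving out each array; leaving out the 5 arrays high in pancreatic RNA was added after seeing the data. The labels do not say whether replicate numbers pair the samples. Correlations of same-numbered arrays, taken on deviations from the group means, ran from −0.207 to 0.311. Arrays with different numbers were not correlated for comparison, so these values do not settle the pairing.

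No ATF4 arm gene was called at 12 h against control under any of these alternatives (0 to 0 when 1 array was left out). ATF4 arm genes called at 3 h against control numbered 11, from 5 to 13 when 1 array was left out and 3 without the 5 arrays. They included 1 lower gene (Atf3) with the filter, the trended prior, the 2 groups alone, the threshold of 0.1 or without 12 h replicate 4. Between 12 h and 3 h they numbered 12, from 6 to 12 when 1 array was left out, 7 with an offset of 1 and 0 without the 5 arrays. Endoplasmic reticulum genes called at 3 h numbered 1, from 0 to 1 when 1 array was left out, 0 with an offset of 1, the 2 groups alone, the replicate block or without the 5 arrays, and 2 with an offset of 64 or the threshold of 0.1. At 12 h against control they numbered 1, from 0 to 1 when 1 array was left out, 0 with an offset of 1, the 2 groups alone, the replicate block or without the 5 arrays. There they numbered 2 with quantile normalization, an offset of 64, the filter, all probe sets, array weights, the trended prior or the threshold of 0.1. Between 12 h and 3 h they numbered 0, from 0 to 2 when 1 array was left out, and 1 with an offset of 64, the filter, the trended prior or the threshold of 0.1. The difference of the arms at 3 h against control was 0.64, from 0.56 to 0.68 when 1 array was left out and 0.51 with an offset of 64. Without the 5 arrays it was −0.05 at 12 h against control (0.05 with all arrays) and −0.76 at 12 h against 3 h, and leaving out 1 array gave 0.01 to 0.10 and −0.62 to −0.51.

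All genes called at 3 h numbered 462, from 161 to 520 when 1 array was left out, 229 with an offset of 1, 711 with the filter, 277 with the replicate block, 80 without the 5 arrays and 878 at the threshold of 0.1. At 12 h against control they numbered 297, from 64 to 455, and 81 with an offset of 1, 495 with an offset of 64, 573 with the filter, 536 with the trended prior, 62 with the 2 groups alone, 183 with the replicate block, 8 without the 5 arrays and 690 at 0.1. Between 12 h and 3 h they numbered 741, from 395 to 758, and 435 with an offset of 1, 466 with the replicate block, 16 without the 5 arrays and 1275 at 0.1. With an equal median the split of higher and lower calls was 165 and 115 at 12 h against control, where it was 143 and 154, and 289 and 146 at 3 h, where it was 261 and 201. With the replicate block 10 ATF4 arm genes were called at 3 h and 8 at 12 h against 3 h, Asns at 3 h was called (0.95, adjusted p = 0.0117) and Atf4 was not (0.66, adjusted p = 0.0744). No call of a gene given array by array changed direction under the alternatives run on single genes. The causes were not tested.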
